A study of Mus musculus with 2 samples.

Results

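Levels of 10 genes of radial glia and of the Notch pathway, out of 31053 features in the count matrices, were described in single cells of the embryonic mouse brain. The genes were taken by symbol: Fabp7, Slc1a3, Ptprz1, Nes, Sox2 and Sox9 as genes of radial glia, and Notch1, Dll1, Hes1 and Hes5 as genes of the Notch pathway. The cells came from the hypothalamic and thalamic region of E15.5 embryos of the outbred CD1 strain. Before capture on the 10x droplet system, cells were sorted for staining of Cd11b together with Cd45, which mark myeloid cells, so the neural cells described here are cells carried through a microglial sort. The control library pooled 10 embryos of 1 unstressed dam. The stressed library pooled 5 embryos of 1 dam that spent 30 min per day at 4 °C from E11.5 to E15.5. With 1 library of 1 litter per condition there was no replicate, no test between conditions was possible, and litter, sex and library cannot be told apart from the stress.

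Radial glia are the progenitors that line the ventricles of the embryonic brain and span its wall, and they give rise to neurons and later to astrocytes and oligodendrocyte precursors. In the Notch pathway a ligand on one cell, such as Dll1, binds a receptor on its neighbour, such as Notch1. The receptor is then cut, and its inner part enters the nucleus and joins the DNA-binding factor Rbpj to switch on Hes1 and Hes5. These are repressors known to hold back the proneural genes and so to keep a cell a progenitor, while cells that begin to form neurons are known to raise Dll1.

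Hes5 is shown by its sequence, because its promoter is a textbook target of Rbpj. The 250 bases before its start on the plus strand, chr4:154960673-154960922 of GRCm38.p6 (RefSeq), were searched with those of the other genes for the Rbpj sequence GTGGGAA on both strands (TTCCCAC on the other). Capitals mark the matches.
Hes5: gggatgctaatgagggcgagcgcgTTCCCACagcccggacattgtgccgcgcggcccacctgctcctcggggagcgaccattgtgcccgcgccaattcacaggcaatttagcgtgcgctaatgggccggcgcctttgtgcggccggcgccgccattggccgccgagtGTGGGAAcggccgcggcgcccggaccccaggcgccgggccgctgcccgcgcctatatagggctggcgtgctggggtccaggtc
Hes5 had 2 matches, beginning 226 and 83 bases before the start, the first on the opposite strand and the second on the same strand as the gene. Among 32851 stretches of the same length in the table, 5.42% held at least 1 match and 0.161% (53 stretches) held 2 or more. Stretches were found for 8 of the 10 genes. Hes1 and Sox9 had none in the table and were not searched. Besides Hes5, none of the other 7 held the 7 letters. Among the other pathway genes described below, Lfng had 1 match, 109 bases before its start, shown with its surroundings at chr5:140607222-140607248 on the plus strand.
Lfng: cgtatcccacGTGGGAAggagagatct
A match describes these letters alone, and no match says only that they are not in this window.

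After filtering, 1068 control and 1407 stressed cells remained, from libraries of 2833015 and 6582188 UMIs (unique molecules counted). Cells were gated by marker lists that hold none of the 10 genes, and class names stand for the gate passed (neural progenitor-like, neuron-like and so on). Progenitors numbered 57 in each library (184236 and 366234 UMIs in all, medians 2168 and 4431 per cell), neurons 152 and 98 (257506 and 305306 UMIs, medians 1460 and 2781.5), and microglia 718 and 1184 (1889078 and 5457594 UMIs, medians 2164 and 3994). Of all barcodes, 13 occurred in both libraries, and the deeper copy held between 3.89 and 38.8 times the UMIs of the shallower one. In 9 of the 13 both copies passed the progenitor gate. After filtering, 7 control and 4 stressed progenitors carried such a barcode and gave 35.1% and 27.0% of the UMIs of their class, so the main values of progenitors are also given without them. No Y-linked UMI was found in stressed progenitors or neurons, while 13 of the 57 control progenitors had one. Haemoglobin took 5.07% of the UMIs of stressed progenitors and 0.00977% of those of control progenitors. In the stressed library it took 15.55% in progenitors of intermediate Fabp7 level (1000 to 10000 CPM, where CPM are UMIs scaled to a common class total) and 0.0160% in those above. Its part in the results was not tested.

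The label of the progenitors was checked against genes used neither in the gate nor among the 10. Of 20 further genes of radial glia and astroglia, 18 reached 50 CPM in progenitors or neurons of the control library, and 14 of these were higher in progenitors by 2 times or more; in the stressed library this held for 10 of 17. Among all genes tested in the same way 21.8% and 16.3% were higher in progenitors. Hopx, known from radial glia and neural stem cells, stood at 189.97 and 84.6 CPM in control and stressed progenitors and at 19.4 and 3.28 CPM in neurons (5 and 1 UMIs). Dbi, an acyl-CoA-binding protein abundant in glia, stood at 7284 and 6578 CPM in progenitors and at 583 and 534 CPM in neurons. Gfap, the filament of mature astrocytes, had no UMI in either class of either library (up to 20.02 CPM in control and 10.1 CPM in stressed progenitors). Itgam and Ptprc, which encode Cd11b and Cd45, together had 1 UMI in the 57 control and 1 in the 57 stressed progenitors, against 241 and 287 UMIs in control microglia. Of 5 genes of the oligodendrocyte lineage, 2 were tested in each library. Olig1 was higher in control progenitors than neurons by 2 times or more, and both Olig1 and Olig2 were in the stressed library. Olig1 was at 54.3 and 120.1 CPM in control and stressed progenitors, a difference past 2 times (3.37% of all genes were so much higher). Sox10, of the same list, had 0 UMIs in both libraries. The gate itself leaned on Mt3, which gave 65.7% of the list's UMIs in control and 60.8% in stressed progenitors.

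The first comparison asked where the 10 genes are expressed. Radial glia genes were higher in progenitors than in neurons in both libraries, and so were Notch1, Hes1 and Hes5, whereas Dll1 was low in both classes. Together the 10 genes gave 1.74% of all UMIs in control progenitors and 1.78% in stressed progenitors, against 0.0823% and 0.125% in neurons and 0.0101% and 0.00733% in microglia. In the control library 9 of the 9 genes that reached 50 CPM were higher in progenitors by 2 times or more (21.8% of all 3967 genes tested). Among stressed cells 8 of 9 did so (16.3% of 3554 genes), with Sox2 below that size. The genes had a median log2 ratio of 3.97 in control cells and 3.31 in stressed cells, beside 0.07 and -0.07 over all genes tested. Without Mt3 in the gate, which left 44 progenitors in each library, the counts were 8 of 8 (Nes fell under 50 CPM) and 8 of 9. Of all genes, 21.6% and 16.9% were then higher in progenitors. This gate was added after the data were seen. No p-value belongs to these counts, since cells of 1 library are not replicates, and every interval below is an exact 95% interval for counting error alone.

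**Figure D1:**
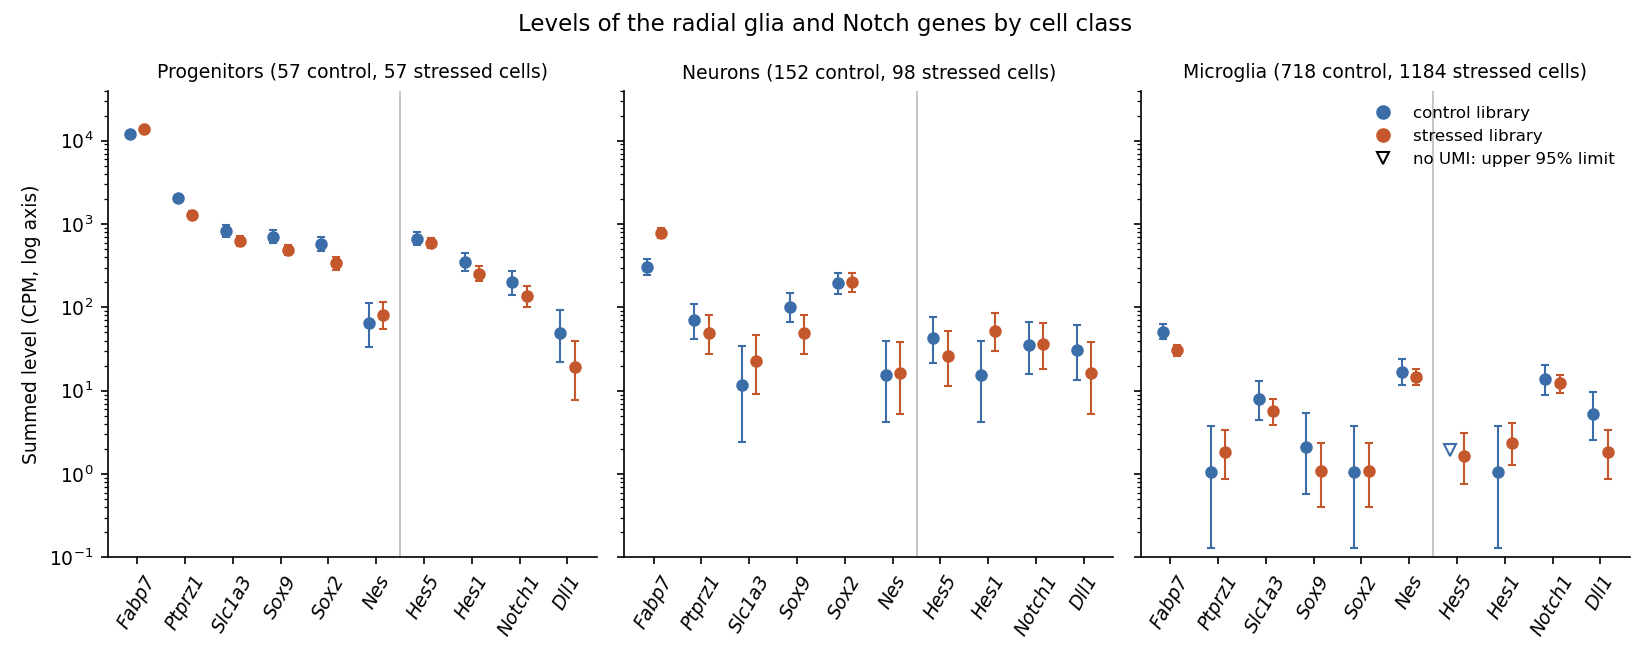
Summed level in CPM (log axis) of each of the 10 genes in gated progenitors, neurons and microglia of the control (blue) and stressed (orange) library. Points are 1 class sum each, bars are exact 95% Poisson intervals, a triangle marks the upper limit where no UMI was counted, and the grey line parts radial glia genes from Notch pathway genes. For 8 of the 10 genes the progenitor and neuron intervals do not overlap in either library; those of Nes overlap in the control library and those of Dll1 in both.

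Fabp7 encodes the brain fatty acid-binding protein of radial glia and lies at chr10:57784881-57788450. It gave 68.6% of the UMIs of the 10 genes in control progenitors and 78.5% in stressed progenitors. Its level was 11919.5 CPM (interval 11426 to 12429) in control and 13972 CPM (13592 to 14360) in stressed progenitors, against 307 CPM (243 to 382) and 779.5 CPM (684 to 885) in neurons. The log2 ratios of progenitors over neurons were 5.28 (4.96 to 5.62) and 4.16 (3.98 to 4.36). When each cell was thinned to 1000 UMIs, Fabp7 was found in 86.3% of 51 control and 85.7% of 56 stressed progenitors, in 12.7% and 19.8% of neurons and in 2.67% and 2.88% of microglia. Of all Fabp7 UMIs in the cells kept, 91.0% of the control and 91.1% of the stressed library lay in progenitors. Without the shared barcodes Fabp7 stood at 13851 and 15333 CPM in progenitors, with log2 ratios to neurons of 5.5 and 4.3. The level varied widely among progenitors, from 0 to 50154 CPM in single control cells and from 0 to 52377 CPM in single stressed cells, with medians of 6262 and 9046 CPM.

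Ptprz1, a receptor-type phosphatase of radial glia and oligodendrocyte precursors (chr6:22875502-23052916), stood at 2030 CPM (1829 to 2247) in control and 1297 CPM (1183 to 1419) in stressed progenitors. In neurons it was at 69.9 and 49.1 CPM, 29.0 and 26.4 times lower. Slc1a3, the glutamate transporter GLAST (chr15:8634124-8710764), had 819.6 CPM (694 to 961) in control and 623 CPM (544 to 709) in stressed progenitors. Only 3 UMIs in control and 7 in stressed neurons were counted for it, which put its log2 ratios at 6.14 (4.56 to 8.43) and 4.76 (3.70 to 6.09). Slc1a3 shares part of its span with Gm37310 on the same strand, so reads of the pair may not be told apart. Nes, the filament nestin (chr3:87971078-87980451), was sparse in progenitors, with 12 UMIs in 11 control cells and 30 UMIs in 20 stressed cells. Its levels were 65.1 CPM (33.7 to 114) and 81.9 CPM (55.3 to 117), and its log2 ratios over neurons were 2.07 (0.35 to 4.16) and 2.32 (0.94 to 4.05). Without the barcodes found in both libraries, Ptprz1 stood at 1547 and 1133 CPM in progenitors, Slc1a3 at 669 and 527 CPM, and Nes rested on 7 control and 24 stressed UMIs. The log2 ratios to neurons were then 4.47 and 4.53 for Ptprz1, 5.84 and 4.52 for Slc1a3, and 1.91 and 2.45 for Nes.

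Sox2 and Sox9 encode transcription factors of neural progenitors. Sox9 (chr11:112782224-112787760), known for starting glial fate, was at 706 CPM (590 to 838) in control and 489 CPM (420 to 566) in stressed progenitors, and at 101 and 49.1 CPM in neurons. Its log2 ratios were 2.80 (2.19 to 3.47) and 3.31 (2.55 to 4.18). Sox2 (chr3:34650405-34652461), a factor of the stem cell state, had the smallest ratios of the 9 genes tested. It stood at 575 CPM (471 to 696) in control and 341 CPM (284 to 407) in stressed progenitors, beside 194 CPM (144 to 256) and 199.8 CPM (152.8 to 256.7) in neurons. The log2 ratios were 1.57 (1.07 to 2.08) and 0.77 (0.32 to 1.24). Of all Sox2 UMIs, 30.1% of the control and 30.5% of the stressed library lay in neurons, spread over 31 of 152 and 37 of 98 neurons with no more than 5 UMIs in a cell. The Sox2 gene lies within Sox2ot, a noncoding gene on the same strand, and reads of the pair cannot be told apart where they overlap. Without the shared barcodes Sox9 stood at 519 and 434 CPM and Sox2 at 443 and 333 CPM in progenitors, with log2 ratios to neurons of 2.36 and 3.14 for Sox9 and of 1.19 and 0.74 for Sox2. With cells required to hold 3 times more UMIs of their own list, Sox2 passed 2 times in the stressed library too, at a log2 ratio of 1.08.

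In the Notch pathway, the target genes Hes1 and Hes5 were higher in progenitors of both libraries, the receptor Notch1 was so with all cells counted, and the ligand Dll1 had too few UMIs to place. Notch1 (chr2:26457903-26516663) had 37 UMIs in control and 50 in stressed progenitors, or 201 CPM (141 to 277) and 137 CPM (101 to 180). In neurons it had 9 and 11 UMIs, and the log2 ratios were 2.52 (1.45 to 3.76) and 1.92 (0.96 to 3.01). This rested on few deep cells in the control library: without the barcodes found in both libraries, 8 Notch1 UMIs remained in 50 control progenitors (66.9 CPM, 28.9 to 132), and the log2 ratio to neurons fell to 0.94, short of 2 times. In stressed progenitors 32 UMIs remained (119.7 CPM, 81.9 to 169), a log2 ratio of 1.73.

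Hes5 (chr4:154960923-154962371) was at 668 CPM (555 to 797) in control and 593 CPM (516 to 677) in stressed progenitors, and at 42.7 and 26.2 CPM in neurons, where 1 control cell gave 7 of the 11 UMIs. Its log2 ratios were 3.97 (3.08 to 5.01) and 4.5 (3.49 to 5.73). Hes1 (chr16:30064384-30067796) was at 353 CPM (272 to 450) and 254 CPM (205 to 311) in progenitors, with log2 ratios to neurons of 4.51 (3.08 to 6.42) and 2.28 (1.5 to 3.14). In stressed neurons 1 cell gave 12 of the 16 Hes1 UMIs. The stressed ratio lay between 1.81 (no Mt3 in the gate) and 4.79 (3 times more UMIs of the own list) over the alternatives run. Both Hes genes were thus far higher in progenitors of each library, and their levels there without the shared barcodes were 819.7 and 733 CPM for Hes5 and 326 and 236 CPM for Hes1. Dll1 (chr17:15367354-15376872) had 9 UMIs in 5 control progenitors and 7 UMIs in 4 stressed progenitors, and 8 and 5 UMIs in neurons. Its log2 ratios of 0.65 (-0.89 to 2.23) and 0.22 (-1.65 to 2.22) leave a difference in either direction undetectable at this depth, and at under 50 CPM it was not among the genes tested. Hes5, Notch1 and Dll1 each overlap noncoding genes on the opposite strand.

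The other genes of the pathway came from fixed lists of receptors, ligands, processing factors and nuclear factors. Of the 3 other receptors, Notch2 and Notch3 were tested and both were higher in progenitors in each library. Notch2 stood at 841 and 516 CPM in control and stressed progenitors and at 42.7 and 26.2 CPM in neurons, a log2 ratio of 4.30 in both. Notch3, the receptor also made by pericytes, stood at 109 and 51.9 CPM against 1 UMI in neurons of each library. Of the other ligands 3 were tested in control and 1 in stressed cells, and 0 passed 2 times in either; Dlk1, a noncanonical ligand, had log2 ratios of 0.67 and 0.93. Of 16 genes for processing and ligand handling, 6 were tested in the control library. Lfng, a glycosyltransferase that modifies Notch receptors, and Ncstn, a subunit of the gamma-secretase that cuts them, were higher in progenitors, and Mfng, a relative of Lfng, was lower (14.6% of all genes were lower). Adam10, the protease of the first cut, and Mib1, the ligase that activates ligands, lay within 2 times in both libraries, with log2 ratios of 0.82 and 0.40 and of 0.56 and 0.54. In the stressed library 0 of 5 were higher and Rfng was lower (13.8% of all genes). Lfng and Ncstn missed the 50 CPM minimum there, with 18 and 14 UMIs in progenitors and 2 and 5 in neurons. Their log2 ratios in that library were 2.91 (0.85 to 6.06) and 1.22 (-0.33 to 3.05). Among the 9 nuclear factors and targets, Nrarp, a feedback inhibitor that Notch switches on, was higher in progenitors of both libraries, at 179 and 128 CPM against 11.7 and 9.83 CPM. Rbpj itself was at 70.6 and 49.1 CPM in progenitors and 81.6 and 72.1 CPM in neurons. Hes6, which is known to oppose Hes1 in forming neurons, stood lower in progenitors, with log2 ratios of -0.52 (-1.16 to 0.10) and -0.95 (-1.51 to -0.40), neither of them past 2 times.

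**Figure D2:**
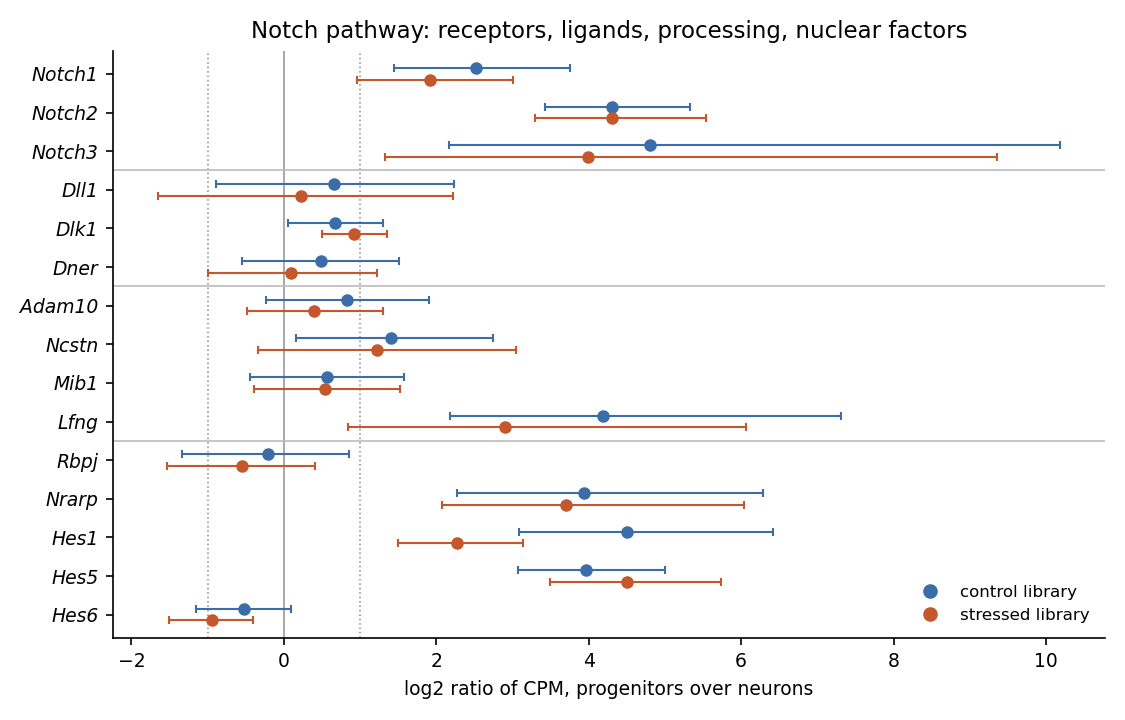
Log2 ratio of CPM, progenitors over neurons, for 15 Notch pathway genes (the 4 of the 10 and those named by rule) in the control (blue) and stressed (orange) library, grouped by grey lines into receptors, ligands, processing factors and nuclear factors with targets. Bars are exact conditional 95% intervals, and dotted lines mark 2 times in either direction. Notch1, Notch2, Notch3, Ncstn, Lfng, Nrarp, Hes1 and Hes5 lie to the right of 2 times in both libraries. Of these, Ncstn and Lfng were under 50 CPM in the stressed library. Dll1, Dlk1, Dner, Adam10, Mib1, Rbpj and Hes6 lie between the dotted lines.

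Genes that push cells out of the progenitor state, a list of 8 proneural and committed-progenitor genes, did not move together. Among 5 tested in the control library, Btg2 was higher in progenitors and Neurog2 and Insm1 were lower. Of all genes there, 21.8% were higher and 14.6% lower. Among 4 tested in the stressed library, 0 were higher and Insm1 and Gadd45g were lower, beside 16.3% and 13.8% of all genes. Mfng, Rfng, Neurog2 and Insm1 are named after their values were seen. The difference between these lists and the 10 genes was not tested.

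Single cells showed how often the genes occur together. In cells thinned to 1000 UMIs, control progenitors held a median of 4 of the 10 genes and stressed progenitors 3, while the medians of neurons and microglia were 0. At least 3 of the 10 were found in 80.4% of control and 58.9% of stressed progenitors, in 1.59% and 4.4% of neurons, and in 0.148% and 0% of microglia. After thinning, Hes5 was found in 47.1% of control (interval 32.9 to 61.5%) and 33.9% of stressed progenitors (21.8 to 47.8%), and Hes1 in 27.5% (15.9 to 41.7%) and 23.2% (13 to 36.4%). Thinned control progenitors divided into 8 with both Hes genes, 16 with Hes5 alone, 6 with Hes1 alone and 21 with neither. In the stressed library the numbers were 4, 15, 9 and 28. With all UMIs counted, each of the 14 control progenitors with Notch1 also had Hes5, as did 17 of the 25 in the stressed library, but Notch1 stood at 354.5 CPM in the 11 control progenitors of 5000 UMIs or more and at 53.2 CPM in the shallower 46. After thinning, 3 of 5 control and 2 of 4 stressed cells with Notch1 also had Hes5.

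Progenitors differed in Fabp7. Hes5 and Ptprz1 were lower in cells poor in Fabp7, whereas Hes1 in the stressed library was not. The limits of 1000 and 10000 CPM were chosen after the values were seen, and these values are given with no test. Fabp7 was under 1000 CPM in 6 control and 9 stressed progenitors, and at 10000 CPM or more in 25 and 26. Hes5 had 2 UMIs in the 6 control cells (117 CPM, 14.2 to 423) and 1 UMI in the 9 stressed cells (9.53 CPM, 0.241 to 53.1). In cells of 10000 CPM or more it stood at 733 CPM (565 to 937) and 1019 CPM (872 to 1183). Hes1 stood at 819.6 CPM (448 to 1375) and 333 CPM (232 to 464) in the Fabp7-poor cells and at 229 CPM (140.0 to 354) and 273 CPM (199.5 to 364) in the Fabp7-rich ones. In the control library 13 of the 14 Hes1 UMIs of the Fabp7-poor cells came from 1 cell with a shared barcode, and without it Hes1 was at 105 CPM (2.66 to 586). Without shared barcodes Hes5 in the control library was at 210.2 CPM (25.5 to 759) in 5 Fabp7-poor cells and 862 CPM (644 to 1131) in 22 Fabp7-rich ones, and these intervals overlap. In the stressed library, 7 Fabp7-poor cells without shared barcodes had 0 Hes5 UMIs (up to 67.7 CPM) and 19 Hes1 UMIs in 4 cells (349 CPM, 209.9 to 544). Ptprz1 stood at 117 and 143 CPM in Fabp7-poor and at 3129 and 2328 CPM in Fabp7-rich cells. Sox9 stood at 409.8 CPM (165 to 844) and 448 CPM (329 to 595) in Fabp7-poor cells and at 825 and 652 CPM in Fabp7-rich ones. In the control library 6 of the 7 Sox9 UMIs of the Fabp7-poor cells lay in 1 cell, and without shared barcodes 1 UMI was left (105 CPM, 2.66 to 586). Rsph1, Dynlrb2 and Foxj1, genes of ciliated cells named after their values were seen, stood at 351, 702 and 117 CPM in the Fabp7-poor control cells and at 438, 333 and 181 CPM in the stressed ones. In Fabp7-rich cells they stood at 45.8, 172 and 45.8 CPM and at 130, 17.8 and 17.8 CPM. These values rest on few cells: in the control library 1 Fabp7-poor cell held all 12 Dynlrb2 UMIs, 1 held both Foxj1 UMIs and 1 held 5 of the 6 Rsph1 UMIs. In the stressed library 46 Rsph1 UMIs came from 3 of the 9 cells, and 1 cell held 17 of the 19 Foxj1 UMIs. The part of such cells in the Hes5 difference was not tested.

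**Figure D3:**
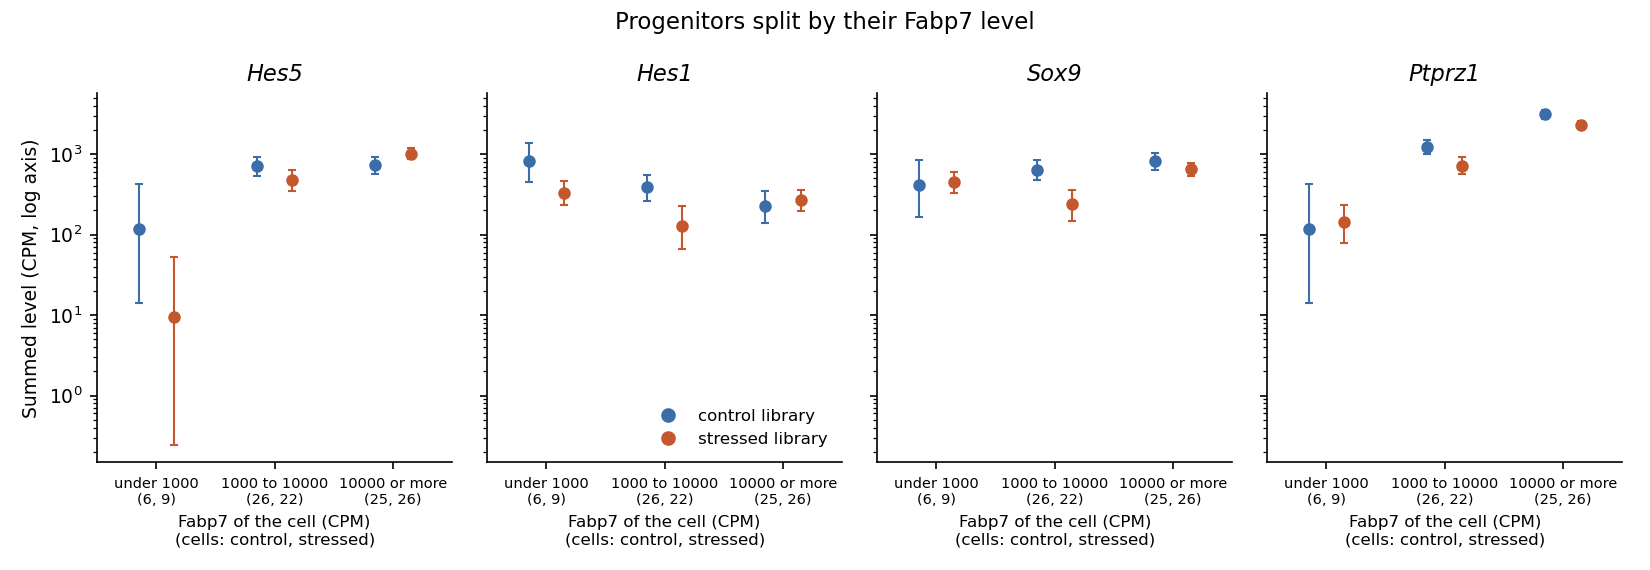
Summed level (CPM, log axis) of Hes5, Hes1, Sox9 and Ptprz1 in progenitors split by the Fabp7 level of the cell, for the control (blue) and stressed (orange) library, with the number of cells in brackets and exact 95% Poisson intervals. Hes5 and Ptprz1 lie lowest in cells with under 1000 CPM of Fabp7 in both libraries, and Hes1 does not, although its control point there rests on 1 cell.

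A second split followed the cell cycle: 21 control and 6 stressed progenitors had 1000 CPM or more of a list of 10 cycling genes. This cut depends on depth, since a cell under 1000 UMIs passes it with a single UMI of the list. Of the progenitors, 6 control and 1 stressed cells were that shallow, and the medians were 2168 and 4431 UMIs. Shared barcodes were left in, and the part of depth in the values below was not tested. In control cycling progenitors Fabp7 was at 5849.8 CPM (5329.6 to 6407) and in the others at 16508 CPM, whereas in the stressed library it was at 19216 and 13195 CPM. Fabp7 thus had opposite orders in the 2 libraries, and that difference was not tested. Hes5 was at 555 CPM (403 to 745) and 753 CPM (596 to 938) in cycling and other control progenitors, intervals that overlap, and at 847 CPM (605 to 1153) and 555 CPM (476 to 643) in the stressed ones, where they also overlap.

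The second comparison asked whether the genes differed between the litters. In progenitors, 0 of the 9 genes tested passed 2 times in either direction (11.9% of all 3653 genes tested did, 3.37% higher and 8.57% lower in the stressed library), and 7 of the 9 stood lower in the stressed library. When CPM were averaged over cells, so that deep cells weigh no more than shallow ones, 4 of the 9 did: Slc1a3, Notch1 and Hes5 turned to log2 ratios of 0.17, 0.26 and 0.05, and Sox9 was at -0.02. With UMIs summed per class, the median log2 ratio of the 9, stressed over control, was -0.47, beside -0.20 over all genes tested. Sox2 had the largest difference at -0.75 (-1.14 to -0.37), followed by Ptprz1 at -0.65 (-0.84 to -0.45), Notch1 at -0.56 (-1.20 to 0.10) and Sox9 at -0.53 (-0.86 to -0.19). Hes1 was at -0.47 (-0.95 to 0.01), Slc1a3 at -0.40 (-0.70 to -0.09) and Hes5 at -0.17 (-0.50 to 0.16). Fabp7 was higher in the stressed library, at 0.23 (0.16 to 0.30), and Nes was at 0.33 (-0.68 to 1.43). With edgeR's TMM factors every ratio moved up by 0.14, which put Sox2 at -0.61, Ptprz1 at -0.50 and Hes5 at -0.03.

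Without the barcodes found in both libraries, the intervals of Sox2 (-0.41, -0.92 to 0.11), Sox9 (-0.26, -0.71 to 0.21) and Slc1a3 (-0.34, -0.75 to 0.07) included 0. Ptprz1 was then at -0.45 (-0.72 to -0.18) and Fabp7 at 0.15 (0.06 to 0.23). Notch1 changed direction, to 0.84 (-0.31 to 2.17). Again 0 of 9 genes passed 2 times, beside 20% of all genes. Of the 57 progenitors, 12 in the stressed and 2 in the control library had under 2 times more UMIs of their own list than of the neuron list. With cells required to hold 3 times more, Ptprz1 was at -0.25 and Fabp7 at 0.54. Among cells with Xist and no Y-linked transcript, 23 control and 42 stressed progenitors, Sox2 was at -0.51, Ptprz1 at -0.47 and Hes5 at 0.25. Of the other pathway genes tested, 1 of 2 receptors (Notch3), 0 of 2 ligands, 2 of 6 processing genes (Ncstn and Lfng) and 0 of 3 nuclear factors were lower in stressed progenitors by 2 times or more, beside 8.57% of all genes, and 0 were higher. Each of the 3 had 26 UMIs or fewer in either library, and Notch3, at -1.07, falls short of 2 times once the TMM shift of 0.14 is applied.

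**Figure D4:**
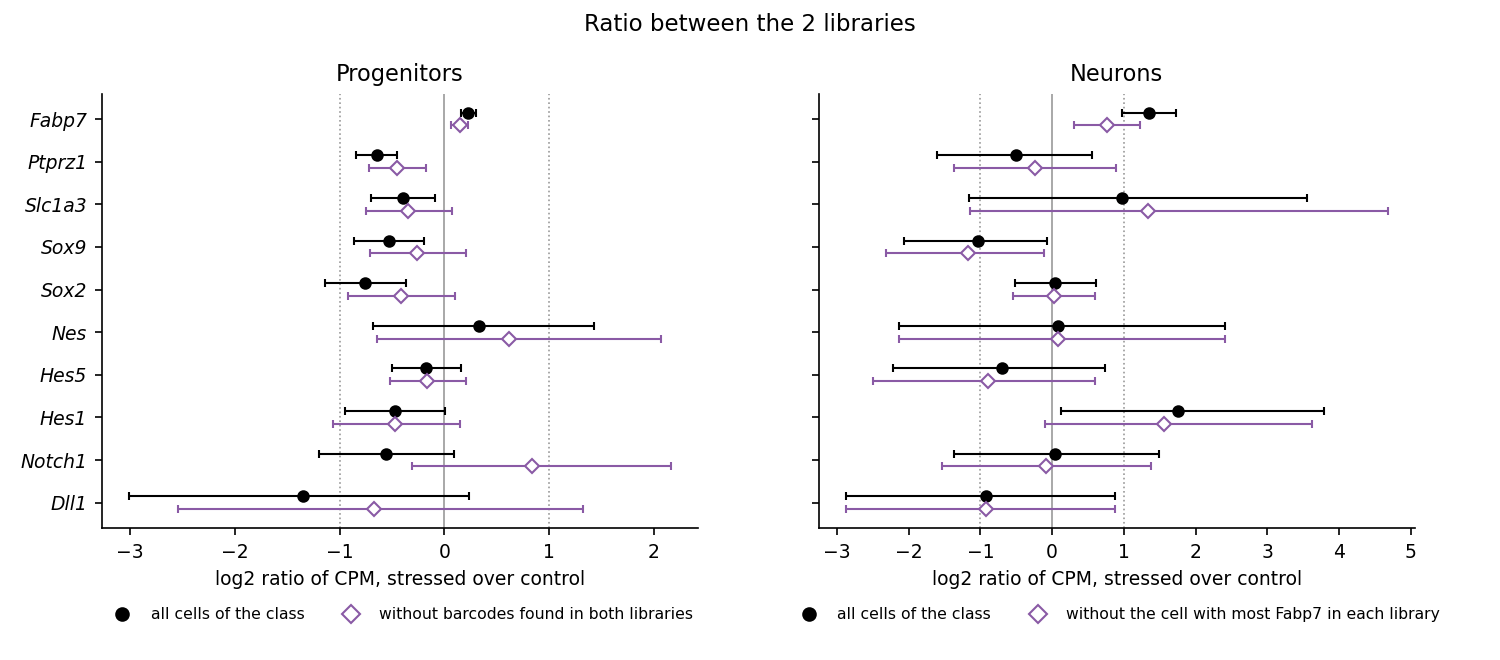
Log2 ratio of CPM, stressed over control, in progenitors and neurons, with exact conditional 95% intervals and dotted lines at 2 times. Black circles use all cells of the class; open diamonds leave out barcodes found in both libraries (progenitors) or the cell with most Fabp7 UMIs in each library (neurons). In progenitors 9 of the 10 circles lie inside 2 times, the exception being Dll1, and the Notch1 diamond lies on the other side of 0 from its circle.

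In neurons 5 of the 10 genes reached 50 CPM, and 3 of them passed 2 times (8.47% of 3319 genes, 3.4% higher and 5.06% lower), namely Fabp7 and Hes1 higher and Sox9 lower in the stressed library. Fabp7 had 79 UMIs in control and 238 in stressed neurons, a log2 ratio of 1.35 (0.97 to 1.73). A single stressed cell with 12 UMIs of the neuron list and 2 of the progenitor list held 114 of the 238. Without the neuron with most Fabp7 in each library, the levels were 244 and 412 CPM and the log2 ratio was 0.76 (0.31 to 1.22). Hes1 rested on 4 and 16 UMIs, of which 12 lay in 1 stressed cell, not the one with most Fabp7. Without the neuron with most Fabp7 in each library, Hes1 was at 15.7 and 46.5 CPM, under the 50 CPM minimum. Its log2 ratio was then 1.57 (-0.11 to 3.63), beside 1.75 (0.12 to 3.79) with all neurons. With the gate that left out Mt3, 1 of 7 genes tested, Fabp7, passed 2 times (8.32% of all genes). Sox9 had 26 and 15 UMIs, a log2 ratio of -1.04 (-2.06 to -0.07), which TMM factors moved to -0.99, short of 2 times. Sox2 was at 194 and 199.8 CPM, a log2 ratio of 0.04 (-0.52 to 0.61), and Ptprz1 at -0.51 (-1.60 to 0.56).

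Microglia served as the background. Free RNA from 1 source keeps its genes in 1 ratio, so the UMIs of each gene in microglia were set beside the number that the Fabp7 count of microglia and the progenitor ratio to Fabp7 would give. This number takes progenitors as the only source. Fabp7 had 97 UMIs in control and 168 in stressed microglia, and the cells with 3 or more UMIs of the 2 neural lists, 16 control and 71 stressed cells, gave 30 and 52 of them. Sox9 (4 and 6 UMIs, with 5.74 and 5.88 at the ratio) and Sox2 (2 and 6, with 4.68 and 4.10) lay near that number within counting error. Ptprz1, at 2 UMIs in control microglia against 16.5 at the ratio, and Hes5, at 0 UMIs (up to 3.69) against 5.43, lay below it, and in stressed microglia they had 10 and 9 UMIs against 15.6 and 7.12.

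Nes and Notch1 did not follow that ratio. Nes had 32 UMIs (21.9 to 45.2) in control and 80 UMIs (63.4 to 99.6) in stressed microglia, where the ratio gave 0.530 and 0.985, a factor of 60.4 and 81.2. Notch1 had 26 UMIs (16.98 to 38.1) and 67 UMIs (51.9 to 85.1), where the ratio gave 1.63 and 1.64. In microglia without a single UMI of the neural lists, 558 control and 729 stressed cells, Nes stood at 18.0 CPM (11.7 to 26.6) and 18.1 CPM (13.5 to 23.7), and Notch1 at 14.4 CPM (8.81 to 22.3) and 13.2 CPM (9.34 to 18.1). Both levels were no lower in cells without neural UMIs than in microglia as a whole (Nes 16.9 and 14.7 CPM, Notch1 13.8 and 12.3 CPM), and the same held for Slc1a3, at 9.38 and 6.94 CPM against 7.94 and 5.68 CPM. Fabp7 fell from 51.3 and 30.8 CPM in all microglia to 19.5 and 16.3 CPM in those cells. The source of the UMIs of these genes in microglia was not tested. Nes UMIs lay in 31 control and 64 stressed microglia with at most 2 and 4 UMIs in a cell. Microglia held 61.5% and 66.1% of all Nes UMIs in the cells kept, but they made up 67.2% and 84.2% of these cells. The Nes level was higher in progenitors, at 65.1 and 81.9 CPM. Slc1a3 (15 and 31 UMIs, with 6.67 and 7.49 at the ratio) and Dll1 (10 and 10, with 0.398 and 0.230) also lay above it, and Hes1 did so in the stressed library alone (13 UMIs, with 3.05 at the ratio, and 2 with 2.87 in the control). Between the libraries, Fabp7 was the 1 gene of the 10 to reach 50 CPM in microglia and did not pass 2 times (0.94% of 2660 genes did, 0.451% higher and 0.489% lower in the stressed library). Nes and Notch1 in microglia had log2 ratios of -0.21 (-0.82 to 0.43) and -0.16 (-0.84 to 0.55).

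**Figure D5:**
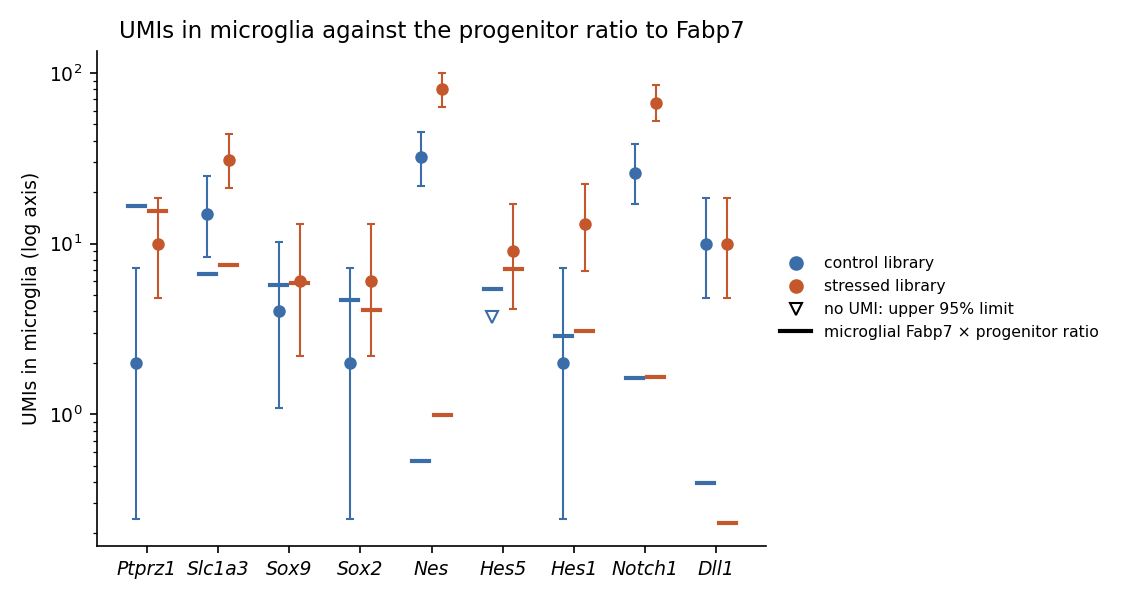
UMIs of 9 genes in microglia (log axis) with exact 95% Poisson intervals, control library in blue and stressed library in orange; a triangle marks the upper limit where no UMI was counted. Thick dashes give the number expected if microglia held the genes in the same ratio to Fabp7 as progenitors do. Nes, Notch1 and Dll1 lie above their dashes in both libraries, and Sox9 and Sox2 have dashes inside their intervals.

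Among the other cells, the 9 vascular cells of each library held Hes1 at 262 CPM (8 UMIs, 113 to 516) and 285 CPM (21 UMIs, 176 to 436), which overlaps its level in progenitors. Notch1 stood there at 164 and 95 CPM, and Nes, which endothelial cells are known to make, at 131 and 81.4 CPM, on 4 to 7 UMIs each. Hes5 had 1 and 0 UMIs. Border-associated macrophages, 72 and 23 cells, had 0 UMIs of Slc1a3, Ptprz1, Nes, Sox9, Hes1 and Hes5 in either library (up to 13.9 CPM in control and 28.7 CPM in stressed cells for each).

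Over the 10 class sums with at least 20 cells, the genes whose level most resembled the summed level of the 10, among 1299 with 100 CPM or more in progenitors of both libraries, were Ndrg2 (Pearson r 0.994), Wdr82 (0.993), Mt3 (0.992), Gm3764 (0.988) and Plagl1 (0.988). Ndrg2, a gene of astroglia, stood at 304 and 298 CPM in progenitors, 31.1 and 39.3 CPM in neurons and 2.12 and 3.66 CPM in microglia. Mt3 is a gene of the progenitor gate. Fabp7 gave 68.6% and 78.5% of the summed UMIs in control and stressed progenitors, so the ranking leans on Fabp7. The points share 2 libraries and the gates, so these values describe likeness only.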

How the data were processed

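The authors deposited UMI counts per gene and cell barcode, and the file headers give software version 3.0.0. The submitters' processing notes list STAR, GRCm38.p5, mm10, Seurat 2.4 and Cell Ranger 3.0.0 without saying what each did. Of 31053 features, 30934 identifiers matched GENCODE M21. The members and gene lists were chosen with earlier results of these data known.

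Barcodes with under 500 genes or over 10% mitochondrial UMIs were dropped. A cell was neural where the progenitor and neuron lists together had 3 UMIs or more and more than any other list, and then took the larger of these lists; other classes needed 3 UMIs and more than every other list. Doublets were left in. Scrublet's own threshold called 2 control and 6 stressed cells, and an alternative removed 37 and 49 with the highest scores. UMIs were summed per library and class and given as CPM, with exact Poisson 95% intervals; ratios have exact conditional and shares exact Clopper-Pearson intervals, which cover counting error only. Here a gene was tested where either class reached 50 CPM, which is a comparison of size with no p-value, and called at 2 times or more; a floor of 3 counts replaced 0 in ratios. Shares were taken after thinning to 1000 UMIs. Named are the 10 genes, up to 4 genes per pathway list with the largest mean ratio of progenitors over neurons among those with 10 UMIs or more in progenitors of each library, the 5 genes most alike (log2 of CPM + 10), and those said to be chosen after their values were seen. Python 3.11.15, scanpy 1.11.5, scipy 1.17.1, edgeR 4.0.16 and DESeq2 1.42.0 (scaling factors only) were used, and the ratio code was tested on simulated data.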

Additional observations from a re-analysis of the deposited data

How the results depend on the processing

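No paired analysis was possible because each group holds 1 library, whose replicate number only follows the accession order. Counts of the 10 genes higher in progenitors than in neurons lay between 8 and 10 in the control and between 8 and 9 in the stressed library under every alternative run. Of all genes, 20.2% to 31.8% were then higher in the control and 15% to 25.5% in the stressed library. Between libraries, the count in progenitors rose from 0 to 1 (Dll1) when per-cell CPM were averaged (23.9% of all genes). It was also 1 (Dll1) with neural Leiden clusters (11.9%), with no CPM minimum (29.7%) and with a minimum of 20 CPM (20.8%). At 1.5 times it was 2 (Ptprz1, Sox2) of 9 genes tested, beside 33.2% of all genes. The count in neurons fell from 3 (8.47% of all genes) to 1 in cells thinned to 1000 UMIs (Fabp7, 24.4%). It was also 1 without the neuron with most Fabp7 (Sox9, 8.7%) and without Mt3 in the gate (Fabp7, 8.32%). It was 0 when the top 1% of cells for each gene was left out (8.43%). Dropping cells under 1000 genes or over 5% mitochondrial UMIs raised it to 4 of 5 (Fabp7, Ptprz1, Sox9 and Hes1), beside 18.7%. The remaining alternatives gave 2 or 3. Hes1 in neurons, stressed over control, turned from a log2 ratio of 1.75 to -0.21 when per-cell CPM were averaged and to -0.12 where cells needed 3 times more UMIs of their own list. The cause was not tested. Of the single-gene ratios over all alternatives, 467 lay within the interval of the main value and 51 lay beyond it. The other 2, those of Hes1 in neurons, reversed for a gene called past 2 times. Part of the 467 could not differ from the main value. Leaving out a neuron cannot change ratios between the progenitors of the libraries, and no neuron carried a shared barcode. Dll1 in progenitors, stressed over control, which was under 50 CPM and so not called, turned from -1.35 to 0.87 in cells thinned to 1000 UMIs. Leaving out shared barcodes, Mt3 or the neuron with most Fabp7 was chosen after seeing the data. At 57 progenitors in each library, 3 intervals held both 2 times and no difference between libraries. They were those of Nes (12 and 30 UMIs), Notch1 (37 and 50 UMIs) and Dll1 (9 and 7 UMIs).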
